A study of Mus musculus with 6 samples.

Results

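The 9 genes described here encode the AP-1 transcription factors *Fos*, *Fosb*, *Fosl1*, *Fosl2*, *Jun*, *Junb* and *Jund* with the related factors *Atf3* and *Maff*. They were chosen by name out of the 17428 gene symbols of the table, and all 9 passed the filter on low coverage. Their RNA was measured in EpH-4 cells (EpH4), a near-normal mouse mammary epithelial cell line that forms epithelial sheets. The E cells were untreated (TGFβ1 for 0 days), the M cells had been kept in medium with TGFβ1 for 7 days, and the RE cells came from M cultures whose TGFβ1 medium was replaced by normal medium for another 4 days. No group was genetically manipulated, and all shared D-MEM/F12 medium with fetal bovine serum, penicillin-streptomycin and recombinant human insulin. Each group had 2 libraries from biological replicates of this 1 line.

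AP-1 is a family of dimers whose subunits bind DNA through a basic region and pair through a leucine zipper. Fos proteins need a partner such as a Jun protein, whereas Jun proteins also pair with each other, and the dimers recognise the TPA response element (TRE). ATF3 pairs with Jun proteins and prefers the related cyclic AMP response element (CRE), and MAFF is a small Maf protein that lacks a transactivation domain of its own. Several of these genes are immediate early genes, whose transcription follows serum, growth factors or stress through MAP kinases, and AP-1 is best known in epithelia for driving proteases and other genes of migration and wound repair.

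The promoters of *Fos*, *Jun* and *Fosb* are shown because the first pair was called in opposite directions in E vs. M and M vs. RE, whereas *Fosb* was called lower in the M cells and not called higher in the RE cells. Each window runs from 250 bases before to 50 bases after the RefSeq start site in GRCm38.p6, on the strand of the gene, with motif matches in capitals.
Fos (chr12:85473640-85473939, plus strand): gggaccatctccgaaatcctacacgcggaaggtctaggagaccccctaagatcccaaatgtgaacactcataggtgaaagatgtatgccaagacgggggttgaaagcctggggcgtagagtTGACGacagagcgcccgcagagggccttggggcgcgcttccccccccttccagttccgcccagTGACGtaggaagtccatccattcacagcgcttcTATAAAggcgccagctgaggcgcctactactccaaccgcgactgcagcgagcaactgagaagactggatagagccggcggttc
Jun (chr4:95052173-95052472, minus strand): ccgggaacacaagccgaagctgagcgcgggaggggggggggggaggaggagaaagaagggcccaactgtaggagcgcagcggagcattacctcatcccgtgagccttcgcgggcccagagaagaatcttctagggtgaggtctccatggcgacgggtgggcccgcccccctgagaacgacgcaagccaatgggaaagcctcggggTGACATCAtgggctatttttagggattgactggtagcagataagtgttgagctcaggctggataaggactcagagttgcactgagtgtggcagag
Fosb (chr7:19309996-19310295, minus strand): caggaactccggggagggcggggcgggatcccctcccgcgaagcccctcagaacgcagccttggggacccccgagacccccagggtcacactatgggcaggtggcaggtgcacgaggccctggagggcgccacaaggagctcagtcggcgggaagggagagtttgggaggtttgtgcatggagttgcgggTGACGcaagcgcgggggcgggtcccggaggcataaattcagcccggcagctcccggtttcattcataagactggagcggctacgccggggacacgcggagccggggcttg
The motifs searched on both strands were the TRE (TGAGTCA), the CRE (TGACGTCA), its half-site (TGACG, which lies in every CRE), the TRE-like element known from the *Jun* promoter (TGACATCA), TATAAA and the CArG box bound by serum response factor. In *Fos*, half-sites began at -129 and -66 and TATAAA at -33 from the start site. In *Jun*, TGACATCA began at -45, and in *Fosb* a half-site began at -60. RefSeq windows were found for 8 of the 9 genes (10 windows, 3 of them for *Maff*), and none for *Fosl1*. Of these 10 windows, 0 held the TRE, against 5.2% of 32851 mouse promoter windows, 1 held the CRE (a *Maff* window, against 1.79%), 2 held TGACATCA (*Jun* and *Maff*, against 3.62%) and 0 held a CArG box (against 1.63%). The half-site was in 6 of the windows, against 20.8% of all windows, and TATAAA was in those of *Fos* and *Junb*, against 13.6%. The *Junb* match began at base 1, the start site itself, and not upstream as in *Fos*. These matches describe the letters of the windows and say nothing of binding. Motifs farther upstream than the windows reach were not searched, so a motif absent here may lie outside them.

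Values are normalized coverage in ppm, that is, the sequenced bases of a gene relative to those of its library (parts per 1000000), after TMM scaling. Log2 fold changes (log2FC) come from limma and are given ± standard error, and FDR is the Benjamini-Hochberg adjusted p of limma over the 13893 genes tested. Genes were called at a log2FC beyond 1 (2-fold) in either direction with an FDR under 0.01. A positive log2FC means higher in the M cells in E vs. M and higher in the RE cells in the other comparisons. The libraries held between 35782513 and 47928557 reads' worth of 50 bases. The lowest value among the members, that of *Maff* in RE replicate 1, rested on 4757 bases. Replicates agreed least in the E cells, where the log2 ratio of one library to the other had an SD over the tested genes of 0.558, against 0.318 for the M and 0.309 for the RE pair. Between the E libraries, *Fos*, *Fosb*, *Jun*, *Junb* and *Jund* were 1.34 to 1.59 times higher in replicate 1, and *Fosl1*, *Fosl2*, *Atf3* and *Maff* were higher in replicate 2. Among the epithelial markers, *Krt7*, *Krt8*, *Krt18*, *Cdh1* and *Tacstd1* (*Epcam*) were present in every library, but *Krt19* was at 0.162 ppm or less in each. The summed level of the 6 epithelial markers ran from 2840 to 3100 ppm in the E, 2860 to 2900 in the M and 1120 to 1250 in the RE libraries, but its members differed. *Tacstd1* was called lower in the M cells (313 to 130 ppm, log2FC −1.26, limma FDR = 0.000621), where *Krt8* was not called (202 to 319 ppm, 0.67, FDR = 0.00919). Between E and RE cells, *Krt7*, *Krt18* and *Tacstd1* were called lower. *Krt8* (−0.66, limma FDR = 0.0144) and *Cdh1* (−0.17, FDR = 0.453) were not called in that comparison. Of the 7 leukocyte and endothelial markers, which summed to between 5.53 and 9.81 ppm, *Ptprc*, *Cd3e* and *Kdr* did not pass the filter. Whether the epithelial markers play a part in the results below was not tested.

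**Figure D1:**
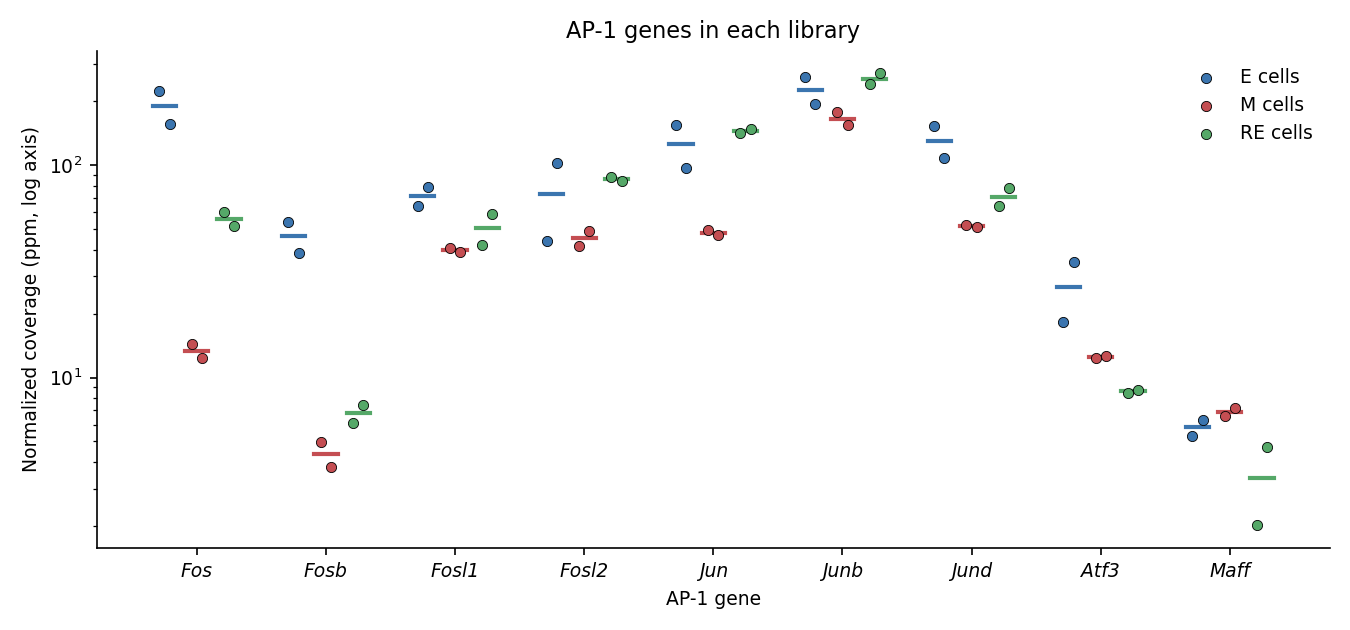
Normalized coverage of the 9 AP-1 genes (ppm, log axis) in each library, with 2 points per stage and a bar at their mean. *Fos* was between 156 and 223 ppm in the E, 12.3 and 14.4 in the M and 51.7 and 60.3 in the RE libraries, and *Atf3* was lowest in the RE libraries.

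TGFβ1 for 7 days was accompanied by lower levels of 4 of the 9 AP-1 genes, *Fos*, *Fosb*, *Jun* and *Jund*, and 0 were called higher (0 also at an unadjusted p of 0.05 in limma). Of all genes tested, 17% were called in E vs. M, made up of 8.39% lower and 8.58% higher. The median log2FC of the 9 genes was −1.02, against 0.0013 over all genes tested. After TGFβ1 withdrawal, *Fos* and *Jun* were called higher in RE than in M cells, and 0 members were called lower (1 at an unadjusted p of 0.05 in limma). The median was 0.62, against −0.02 over all genes, of which 12.9% were called (8.08% higher and 4.79% lower). Against the E cells, *Fos*, *Fosb* and *Atf3* were called lower in the RE cells and 0 members higher (0 also at an unadjusted p of 0.05 in limma). The median was −0.86, against 0.0079 over all genes, of which 9.37% were called (6.2% higher and 3.17% lower). The E vs. M count was 2 without M replicate 1 or M replicate 2 and 6 without E replicate 1, and the M vs. RE count was 1 without M replicate 1, M replicate 2 or RE replicate 1. Against the E cells, 0 members were called by limma without RE replicate 1 (4 at an unadjusted p of 0.05) and 1, *Fosb*, without RE replicate 2. The comparisons share libraries, so these counts are not independent of each other. In bulk RNA, a lower level in each cell and fewer cells with the RNA cannot be told apart. Non-overlap of a pair of groups was frequent with 2 libraries each and is no result about these genes. In E vs. M, 7 members were lower and 1 higher without overlap, against 35% and 35.5% of all genes (70.6% either way). In M vs. RE, 2 members were lower and 7 higher, against 40.2% and 37.9% (78.1% either way), and in E vs. RE 6 were lower and 0 higher, against 32.5% and 34.2% (66.7% either way).

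**Figure D2:**
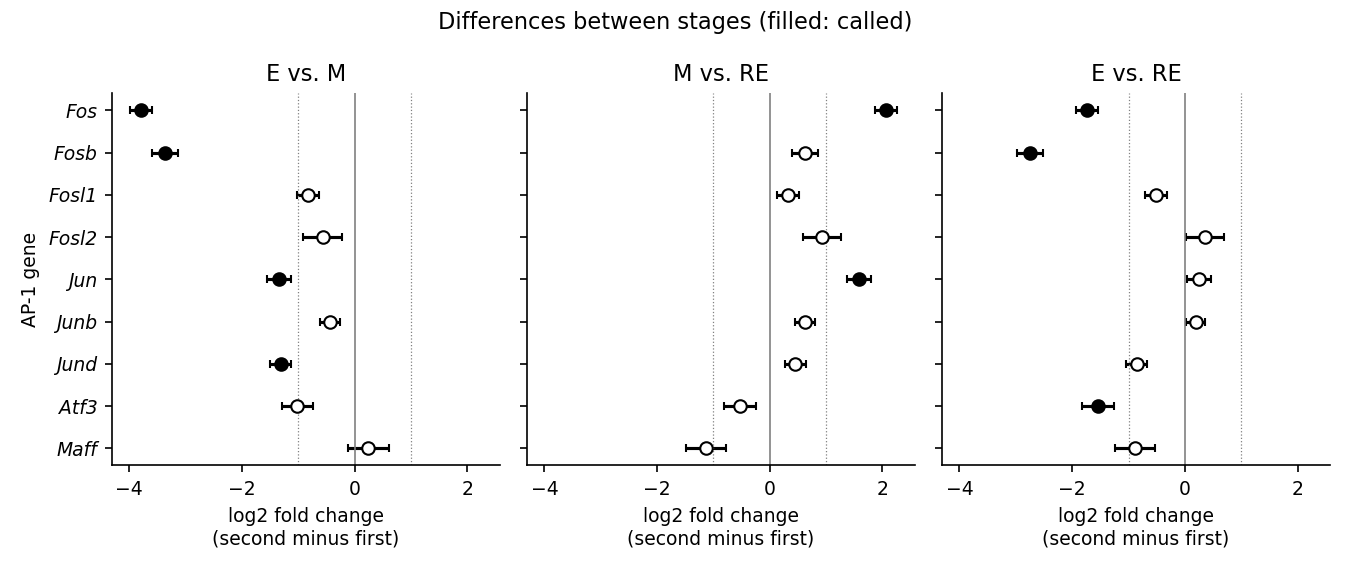
Log2FC from limma of the 9 AP-1 genes in E vs. M, M vs. RE and E vs. RE, with bars of 1 standard error, filled points for called genes and dotted lines at the fold threshold. *Fos* (−3.80) and *Fosb* (−3.37) lie farthest from 0 in E vs. M, and *Fos* (2.06) and *Jun* (1.59) in M vs. RE.

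*Fos* encodes c-Fos, the classical serum-induced partner of Jun proteins. Its coverage was 223 and 156 ppm in the E libraries, 14.4 and 12.3 in the M libraries and 60.3 and 51.7 in the RE libraries. The 3 stages did not overlap, with the RE cells between the others. It was 14.2-fold lower in M than in E cells (log2FC −3.80 ± 0.20, limma FDR = 1.84e-05). It was 4.2-fold higher in RE than in M cells (2.06 ± 0.20, limma FDR = 0.000268) and reached 29.6% of its mean in the E cells. That remaining difference was called (−1.74 ± 0.20, limma FDR = 0.00124). It was no longer called without RE replicate 1 (−1.85, limma FDR = 0.0196) or without RE replicate 2 (−1.63, FDR = 0.0202). Those fits called 44 and 160 genes in E vs. RE among all genes, in place of 1302.

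*Fosb*, which encodes another transactivating Fos protein and is known for long-lived splice forms in neurons, was at 54.2 and 38.7 ppm in the E libraries, 4.97 and 3.79 in the M libraries and 6.09 and 7.45 in the RE libraries. Both TGFβ1-exposed stages were thus far below the E cells. The difference was 10.6-fold in E vs. M (log2FC −3.37 ± 0.23, limma FDR = 5.5e-05). In E vs. RE it was 6.86-fold (−2.75 ± 0.23, limma FDR = 0.000488), and was not called without RE replicate 1 (−2.60, FDR = 0.0132). Both RE libraries lay above both M libraries, but the M vs. RE difference was not called (0.62, 95% interval 0.09 to 1.16, limma FDR = 0.0778). Its mean in the RE cells was 14.6% of that in the E cells.

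*Fosl1* and *Fosl2* encode Fra-1 and Fra-2, Fos proteins without a strong transactivation domain, and Fra-1 is known from mesenchymal-like breast tumour cells. *Fosl1* was at 64.0 and 78.6 ppm in the E libraries, 40.7 and 39.2 in the M libraries and 41.9 and 59.2 in the RE libraries, with the E cells highest and no overlap between stages. Its 1.79-fold lower level in the M cells was close to both thresholds and was not called (log2FC −0.83 ± 0.19, limma FDR = 0.0119), but it was with scaling by library totals (−1.13, FDR = 0.0032). That scaling also moved the median of all genes in E vs. M from 0.0013 to −0.29. In M vs. RE (0.32, 95% interval −0.13 to 0.77) and E vs. RE (−0.51, 95% interval −0.96 to −0.06), *Fosl1* was not called either (FDR = 0.251 and 0.0826 by limma).

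*Fosl2* was at 43.8 and 103 ppm in the E libraries, 41.7 and 48.9 in the M libraries and 87.7 and 84.6 in the RE libraries. The E libraries differed 0.426-fold (replicate 1 over replicate 2), more than 96.1% of the genes tested did, and their range held both RE values and 1 of the M values. No comparison was called: the log2FC were −0.57 in E vs. M (limma FDR = 0.217), 0.93 in M vs. RE (95% interval 0.13 to 1.73, FDR = 0.0773) and 0.36 in E vs. RE (FDR = 0.46). In E vs. M its log2FC was −1.18 without E replicate 1 and 0.02 without E replicate 2. In E vs. RE it lay between −0.26 and 0.98 when 1 library was left out. A fit with 1 E library takes its spread from the M and RE pairs alone. Both RE libraries were above both M libraries.

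*Jun*, the gene of c-Jun, was at 154 and 96.7 ppm in the E libraries, 49.5 and 46.7 in the M libraries and 142 and 148 in the RE libraries. The M libraries stood below all others, and the RE values lay within the range of the E values. It was 2.6-fold lower in M than in E cells (log2FC −1.34 ± 0.21, limma FDR = 0.00221) and 3.02-fold higher in RE than in M cells (1.59 ± 0.21, FDR = 0.0013). Its E vs. RE difference was 0.25 (95% interval −0.24 to 0.74, limma FDR = 0.402). The E vs. M call was lost without M replicate 1 (−1.38, limma FDR = 0.0224) or M replicate 2 (−1.30, FDR = 0.0262). The M vs. RE call was lost without any 1 library of these groups, namely M replicate 1 (limma FDR = 0.0162), M replicate 2 (0.0184), RE replicate 1 (0.0183) and RE replicate 2 (0.0181), with log2FC between 1.55 and 1.63.

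*Junb* encodes JunB, a Jun protein induced by TGFβ in many epithelial cells. It was at 260 and 193 ppm in the E libraries, 177 and 155 in the M libraries and 241 and 271 in the RE libraries, so the M libraries were lowest and the RE and E values overlapped. None of its differences was called. They were −0.44 in E vs. M (95% interval −0.85 to −0.03, limma FDR = 0.0807), 0.63 in M vs. RE (95% interval 0.22 to 1.03, FDR = 0.0307) and 0.19 in E vs. RE (95% interval −0.22 to 0.60, FDR = 0.443).

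*Jund* encodes JunD, which in many cell types is present without stimulation. It was at 152 and 108 ppm in the E libraries, 52.1 and 51.2 in the M libraries and 64.0 and 78.3 in the RE libraries, with no overlap between stages. It was 2.52-fold lower in M than in E cells (log2FC −1.31 ± 0.19, limma FDR = 0.00154). This call was lost without M replicate 1 (−1.32, limma FDR = 0.0193), without M replicate 2 (−1.30, FDR = 0.0202) and with GC and length effects taken out of each library by a spline (−0.87, under the fold threshold). The M vs. RE difference was not called (0.45, 95% interval 0.01 to 0.90, limma FDR = 0.109). In E vs. RE, *Jund* was at 54.6% of its mean in the E cells and not called (−0.86, limma FDR = 0.0145). Without E replicate 2 its log2FC was −1.10, in a fit that holds no spread between E libraries. Over all fits without 1 library, the E vs. RE log2FC ran from −1.10 to −0.61.

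*Atf3*, a stress-induced gene and a known TGFβ target in epithelial cells, was at 18.3 and 35.1 ppm in the E libraries, 12.4 and 12.6 in the M libraries and 8.5 and 8.72 in the RE libraries. Its level was lower in each later stage without overlap, a different order from that of *Fos* and *Jun*. In E vs. RE it was 3.1-fold lower and called (log2FC −1.55 ± 0.28, limma FDR = 0.00679). The call was lost without M replicate 1 (limma FDR = 0.0203), M replicate 2 (0.0203), RE replicate 1 (0.0699) or RE replicate 2 (0.0495), with no filter (0.0139) and in a fit of the E and RE libraries alone (0.0266). In E vs. M the 2.14-fold difference was not called (−1.02, limma FDR = 0.0233). It was called with array weights and with library totals. Without E replicate 1, the lower of the E libraries, the log2FC was −1.48, in a fit that holds no spread between E libraries. Over all fits without 1 library, the E vs. M log2FC ran from −1.48 to −0.57. The M vs. RE difference was −0.53 (95% interval −1.19 to 0.12, limma FDR = 0.192).

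*Maff*, the small Maf gene, had the lowest level per length of the 9 genes in both E libraries. In the RE cells its mean was lowest too, but in RE replicate 2 it was above *Fosb* (2.4 against 1.97 ppm per kb). Its coverage was 5.32 and 6.31 ppm in the E libraries, 6.57 and 7.20 in the M libraries and 2.01 and 4.71 in the RE libraries. The RE libraries were below all others but differed 0.428-fold from each other, a larger gap than in 99.1% of the genes tested. *Maff* was not called in E vs. M (log2FC 0.24, limma FDR = 0.615, and −0.05 with library totals) or in E vs. RE (−0.89, FDR = 0.0992). In M vs. RE it was 2.05-fold lower and not called (−1.13, limma FDR = 0.0478). Among the alternatives that called it there were a fit of the M and RE libraries alone (limma FDR = 0.00373) and array weights (0.00447). Its log2FC was −1.13 without E replicate 1, −1.10 without E replicate 2 and −1.72 without RE replicate 2. Over all fits without 1 library, this log2FC ran from −1.72 to −0.54, so its size depended on which library was left out.

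Coverage was divided by transcript length to compare levels between genes, with lengths from a newer annotation than that of the reads, from 1668 bases for *Jund* to 6537 for *Fosl2*. Levels in ppm per kb and shares are descriptions of each library, with no test. The summed level of the 4 Fos family genes was 161 and 142 ppm per kb in the E libraries, 36.3 and 35.4 in the M libraries and 66.1 and 71.2 in the RE libraries. That of the 3 Jun family genes was 283 and 202 in the E, 145 and 131 in the M and 216 and 243 in the RE libraries. Both sums were lowest in the M libraries, and the RE libraries reached the range of the E libraries in the Jun sum but not in the Fos sum. The ratio of the Jun to the Fos sum was 1.76 and 1.42 in the E, 3.98 and 3.70 in the M and 3.27 and 3.42 in the RE libraries.

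Within the Fos family, *Fos* held 65.6% and 52% of the level per length in the E libraries, 18.8% and 16.5% in the M libraries and 43.3% and 34.5% in the RE libraries. *Fosl1* held 21.3% and 29.7% in the E, 60% and 59.5% in the M and 34% and 44.6% in the RE libraries, so it was the leading Fos gene of the M cells although its own level was not higher there. *Fosl2* held 4.16% and 11.1% in the E libraries and between 17.6% and 21.2% in the M and RE libraries. Within the Jun family, *Junb* led in each library, with mean shares of 51.8% in the E, 66.5% in the M and 61.6% in the RE cells. The share of *Jund* was 32.1%, 22.5% and 18.5% and that of *Jun* 16%, 11% and 19.9%, respectively. In the order of all 9 genes in the E cells, *Junb* (125 ppm per kb) was followed by *Fos* (89.8) and *Jund* (78.1), whose ranges overlapped. *Jun* (39.3) and *Fosl1* (38.3) came next and overlapped too, then *Atf3* (13.5), *Fosb* (12.3) and *Fosl2* (11.2), each overlapping the next, and *Maff* (2.97). In the M cells the order was *Junb* (91.8), *Jund* (30.9), *Fosl1* (21.4) and *Jun* (15.1), each apart from the next, then *Fosl2* (6.93), *Fos* (6.33) and *Atf3* (6.29), of which *Fos* overlapped both others, and *Maff* (3.51) and *Fosb* (1.16). In the RE cells *Junb* (142) was followed by *Jun* (45.5) and *Jund* (42.7), which overlapped, by *Fosl1* (27.1) and *Fos* (26.6), which overlapped, and by *Fosl2* (13.2), *Atf3* (4.34), *Fosb* (1.79) and *Maff* (1.72), the last pair overlapping.

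**Figure D3:**
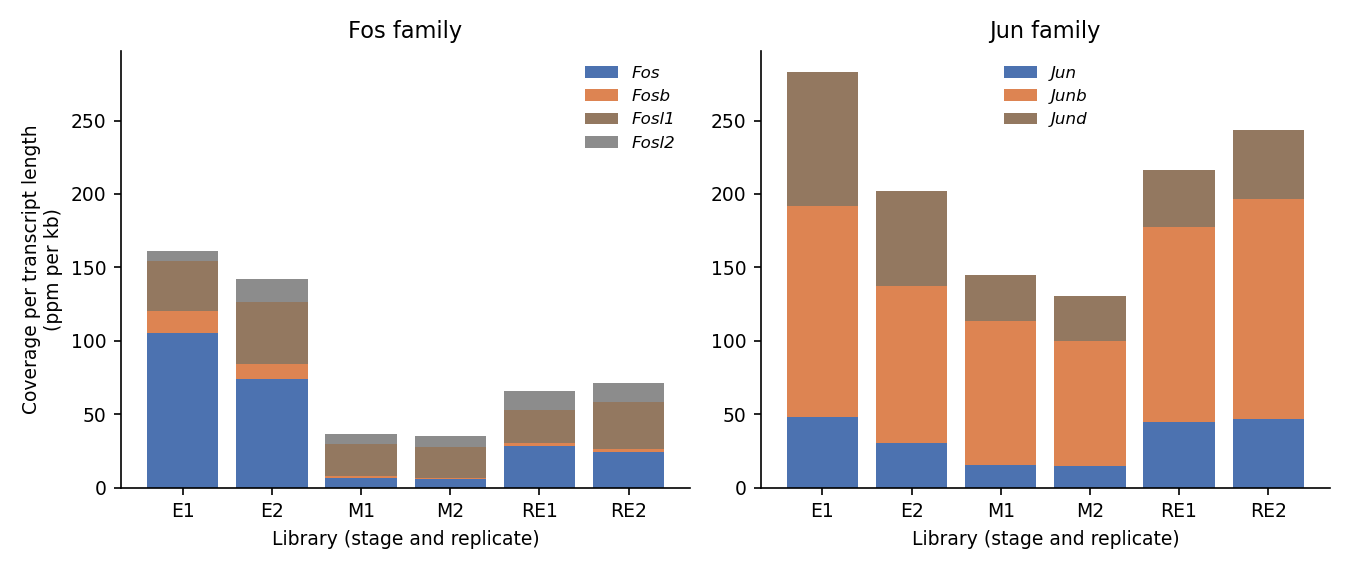
Stacked coverage per transcript length (ppm per kb) of the Fos family genes (left) and the Jun family genes (right) in each library. The Fos stack falls from 142 or more in the E libraries to 36.3 or less in the M libraries and is at most 71.2 in the RE libraries, and *Junb* is the largest part of each Jun stack.

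For each called member, the 3 genes with the most similar pattern were taken from 10095 candidates with a mean log2 value of at least 2, by the root mean square difference of log2 values centred on each gene's mean over the 6 libraries. This is a description with no test. For *Fos* they were *Klk10* (0.166), *Arhgef16* (0.265) and *Adm* (0.281). *Fosb* had the least close neighbours, *Tigit* (0.304), *Chchd10* (0.389) and *Csf3* (0.417). Those of *Jun* were *Gmds* (0.0776), the immediate early gene *Ier2* (0.112) and *Blvrb* (0.114), and those of *Jund* were *9230110C19Rik* (0.0623), *Pih1d2* (0.0942) and *Cyb561* (0.115). For *Atf3* they were *Dgat2* (0.143), *Dqx1* (0.158) and *Gch1* (0.163). *Ier2* had a mean of 76.5 ± 21.2 ppm (SD, n = 2) in the E, 25.1 ± 1.98 in the M and 88.0 ± 4.37 in the RE cells.

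Other immediate early genes were set beside the members, from a list of 27 of which 26 were tested. In E vs. M, 13 were called lower and 3 higher, with a median log2FC of −0.89. In M vs. RE, 14 were called higher and 1 lower (median 1.36), and in E vs. RE 5 were called higher and 3 lower (median 0.06). Called either way were 61.5%, 57.7% and 30.8% in E vs. M, M vs. RE and E vs. RE, beside 17%, 12.9% and 9.37% of all genes. The largest decreases in the M cells were those of *Klf4*, an epithelial Krüppel-like factor (128.6 ± 19.6 to 19.1 ± 1.36 ppm, SD, n = 2, log2FC −2.74, limma FDR = 2.17e-05), of *Zfp36*, which encodes an mRNA decay factor (−2.42, FDR = 7.88e-05), and of *Trib1*, a pseudokinase gene (−2.36, FDR = 0.000178). The genes called higher in the M cells were the matricellular gene *Ctgf* (2.13, limma FDR = 7.96e-05), *Rhob* (1.36, FDR = 0.000522), which was not called without M replicate 1 (0.0114), and *Klf6* (1.12, FDR = 0.000777), which was not called without either M library (highest FDR = 0.0165), with library totals or with GC and length effects taken out. In M vs. RE, *Zfp36* rose from 8.62 ± 0.738 to 147 ± 2.13 ppm (4.08, limma FDR = 1.18e-05), *Nr4a3*, an orphan nuclear receptor gene, from 0.488 ± 0.0119 to 5.21 ± 0.0927 (3.17, FDR = 0.000574, but not called without RE replicate 1, 0.0102) and *Klf4* to 142 ± 4.71 (2.89, FDR = 1.96e-05), while *Ctgf* fell by 3.58 on the log2 scale (FDR = 1.26e-05). Against the E cells, *Nr4a3* (2.85), *Gem* (2.24) and *Zfp36* (1.66) were called higher in the RE cells (FDR = 0.00171, 0.00128 and 0.00111 by limma), the opposite direction to that of *Fos* and *Fosb*. *Ctgf* (−1.44), *Myc* (−1.26) and *Cyr61* (−1.24) were called lower. Without RE replicate 1 or without RE replicate 2, 0 of the 26 were called in E vs. RE by limma (13 and 16 at an unadjusted p of 0.05). The 16 called in E vs. M became 10 without M replicate 1 and 9 without M replicate 2, and the 15 called in M vs. RE became 9 without RE replicate 1.

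Genes long known as AP-1 targets were taken as a list of 22, of which 18 were tested; several are also known to respond to TGFβ through Smad proteins. In E vs. M, 9 were called higher and 1 lower (median log2FC 1.73), the opposite direction to the AP-1 genes called. In M vs. RE, 12 were called lower (median −1.97), and in E vs. RE 4 were (median −0.45). In either, 0 were called higher by limma (2 and 4 at an unadjusted p of 0.05). The shares called either way were 55.6%, 66.7% and 22.2% in E vs. M, M vs. RE and E vs. RE, beside 17%, 12.9% and 9.37% of all genes. The proteinase gene *Mmp9* had a mean of 1.58 ± 0.229 ppm (SD, n = 2) in the E, 916 ± 71 in the M and 1.62 ± 0.511 in the RE cells. Its log2FC was 9.10 in E vs. M (limma FDR = 7.34e-06) and −9.09 in M vs. RE (FDR = 3.7e-06). *Mmp13*, a collagenase gene, rose by 4.53 in E vs. M (limma FDR = 9.76e-05) and *Mmp10*, a stromelysin gene, fell by 5.86 in M vs. RE (FDR = 1.18e-05). The metallothionein gene *Mt2* was the one called lower in the M cells (−2.58, limma FDR = 0.000158). In E vs. RE, *Mmp10* (−2.33), *Hbegf*, the gene of an EGF receptor ligand (−1.64), and *Mt2* (−1.54) had the largest decreases (FDR = 0.00119, 0.00123 and 0.00321 by limma). Without RE replicate 1 or without RE replicate 2, 0 of the 18 were called in E vs. RE by limma (10 and 11 at an unadjusted p of 0.05), and 8 were without E replicate 1.

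**Figure D4:**
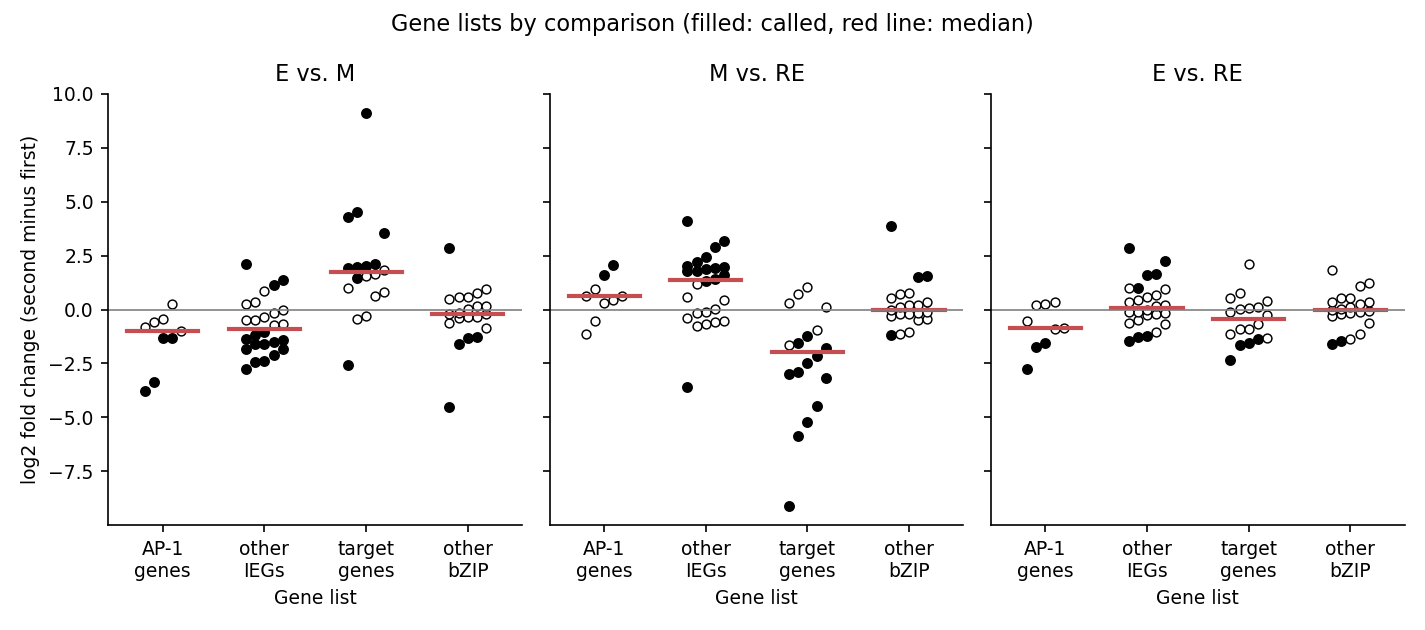
Log2FC of the 9 AP-1 genes, 26 other immediate early genes (IEGs), 18 AP-1 target genes and 21 other bZIP factors in each comparison, 1 point per gene, filled where called, with a red line at the list median. In E vs. M the medians are −1.02, −0.89, 1.73 and −0.19.

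Other bZIP factors share the DNA-binding and zipper fold. Of 24 listed and 21 tested, 1 was called higher and 4 lower in E vs. M (median log2FC −0.19), 3 higher and 1 lower in M vs. RE (median −0.02) and 0 higher (6 at an unadjusted p of 0.05 in limma) and 2 lower in E vs. RE (median −0.01). The shares called either way were 23.8%, 19% and 9.52%, beside 17%, 12.9% and 9.37% of all genes. *Cebpb* (−1.58, limma FDR = 0.00274) and *Atf5* (−1.32, FDR = 0.000556) were among those called lower in the M cells, and *Bach2*, a repressor gene whose product pairs with small Maf proteins, was called higher (2.86, FDR = 0.00177). *Ddit3* (1.53, limma FDR = 0.0026) and *Cebpb* (1.49, FDR = 0.00449) were called higher in RE than in M cells, and *Nfe2l3* lower (−1.19, FDR = 0.0049). In E vs. RE, *Nfe2l3* (−1.58, limma FDR = 0.00222) and *Atf5* (−1.46, FDR = 0.000934) were called lower. Each of these named calls was lost without at least 1 library of the groups compared (M replicate 1 or 2, or RE replicate 1 or 2).

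Of the kinases and serum response factors that act on AP-1 genes, 17 were listed and 16 tested. In E vs. M, 1 was called higher and 1 lower (median log2FC 0.37), and in M vs. RE 1 higher and 1 lower (median −0.08). In E vs. RE, 0 were called by limma (5 at an unadjusted p of 0.05, median 0.16). The shares called either way were 12.5%, 12.5% and 0%, beside 17%, 12.9% and 9.37% of all genes, so no share exceeded that of all genes. *Map3k1*, a kinase gene upstream of JNK, had a mean of 37.1 ± 10.5 ppm (SD, n = 2) in the E, 9.72 ± 0.645 in the M and 36.9 ± 7.96 in the RE cells (−1.89 in E vs. M, FDR = 0.000742, and 1.90 in M vs. RE, limma FDR = 0.000923). Its E vs. M call was lost without M replicate 1 (FDR = 0.0115), and its M vs. RE call without M replicate 1, M replicate 2 or RE replicate 1 (highest FDR = 0.0148). *Mkl1*, a coactivator of serum response factor, was called higher in the M cells (1.46, limma FDR = 0.00265), but not without M replicate 1 or 2 (highest FDR = 0.0278). *Elk3*, a ternary complex factor gene, was called lower in RE than in M cells (−1.04, FDR = 0.00171), but not with library totals or without any 1 of the M and RE libraries (highest FDR = 0.0333).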

How the data were processed

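RNA from 2 replicates each of E, M and RE cells was sequenced. Unique reads were aligned by the authors with Bowtie and TopHat2 against NCBI-m37. The table they deposited holds, for each gene symbol, unscaled coverage (signal): the sum of its sequenced bases. It is not a table of reads: among values from 1 to 400, between 44.8% and 48.4% per library were multiples of 50. The summing step, its annotation and its use of strand are not given in the sources used here, so overlapping genes may share coverage. The edgeR test of the study's methods needs read counts and was not run.

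Coverage was scaled by TMM without weights (30% of log ratios and 5% of levels trimmed at each end, factors 0.871 to 1.12). The test was limma 3.58.1 (R 4.3.3), for genes reaching 500 bases (10 reads of 50) in 2 or more libraries, on log2(ppm + 0.1), a scale that understates changes of low genes, with all 6 libraries, group only, and a trend on mean expression. On simulated data for E vs. M, it called 91.8% of 194 genes changed by 2 on the log2 scale, and 2 unchanged genes, among 13575. The simulated noise was normal and equally wide in all 6 libraries, whereas the real E libraries differed more than the others. These rates therefore need not hold for the real data. Intervals are at the 95% level from the limma fit of all 6 libraries. That fit takes the same spread for each group, so standard errors, intervals and FDR rest on an equal spread that the E libraries exceeded. Fitting only the 2 groups compared called 1798 genes in E vs. M and 525 in E vs. RE, against 2358 and 1302 with all libraries. In M vs. RE it called 2327, against 1789. Depth speaks to counting error alone, and precision rests mainly on having 2 libraries a group. A fit without 1 library leaves its group with 1, so its calls and counts of calls hold no spread within that group. Alternatives to thresholds, scaling, filter, pseudocount, libraries fitted, weights and block are given in the closing section.

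Members and lists were chosen with earlier results of these data known. Genes named outside the members are the called genes of each list, at most 3 per direction and comparison with the largest change, and the 3 nearest patterns, beside *Ier2*, whose levels are given because it belongs to both. A few genes that this rule names are not reported here. *Cebpd* and *Mmp1a* were not matched. Lengths and GC content came from GENCODE M21 (93.4% of genes tested), promoters from RefSeq.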

Additional observations from a re-analysis of the deposited data

How the results depend on the processing

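Of the 27 log2 fold changes of members, 12 kept their direction and side of the threshold under each alternative run, and 473 of 513 alternative values did. The *Fosl2* sign in E vs. RE turned with GC and length effects taken out, without and with the replicate block (−0.036 in both). Without 1 library at a time, *Fosl2* in E vs. M ran from −1.1843 to 0.0204. In E vs. RE it ran from −0.2555 to 0.9761, where *Jun* ran from −0.0828 to 0.5852 and *Junb* from −0.0194 to 0.4015. *Maff* (−0.0542) turned in E vs. M with library totals. The causes were not tested. The number of members called without 1 library at a time was 2 to 6 for E vs. M (4 with all), 1 to 3 for M vs. RE (2 with all) and 0 to 4 for E vs. RE (3 with all). The corresponding ranges were 9 to 17, 9 to 16 and 0 to 10 for the immediate early genes, 8 to 13, 8 to 14 and 0 to 8 for the target genes, 1 to 6, 1 to 6 and 0 to 7 for the other bZIP factors, and 0 to 3, 0 to 2 and 0 to 1 for the AP-1 inputs. In other settings, 4 AP-1 inputs were called in E vs. M at a fold change of 1.5, 1 in M vs. RE with library totals, 5 immediate early genes in E vs. RE with the 2 groups fitted alone, and 5 other bZIP factors in E vs. RE at an adjusted p of 0.05. Fitting E and RE alone called 525 genes, against 1302 with all libraries. Library totals moved the share of calls that were higher to 30.5% (from 50.6%) for E vs. M and to 73.8% (from 62.8%) for M vs. RE.

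A replicate block gave 2431 (E vs. M), 1830 (M vs. RE) and 1284 (E vs. RE) calls over all genes, while the fit without it gave 2358, 1789 and 1302, and *Jund* in E vs. M (−1.31), *Maff* in M vs. RE (−1.13, not called) and the other members kept their calls. Together with removal of GC and length effects, the block called *Maff* lower in M vs. RE (−1.17, adjusted p = 0.00923 by limma), and *Jund* was not called in E vs. M (−0.87), as without the block. The deviations of same-numbered libraries correlated at 0.27 (E, M), 0.058 (E, RE) and 0.12 (M, RE), so the numbers were not taken as pairs. The lowest member value rests on 4757 bases, so the spread between 2 libraries, more than depth, limits these comparisons.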
